A study of Mus musculus with 12 samples.

Results

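The genes described here are the mouse collagen chain genes, taken as every gene whose platform symbol is Col, a number, the letter a and a number. There were 42 such genes among 18193 genes with 1 symbol on the array, covered by 82 probe sets, and each gene was represented by its probe set with the highest mean, with no filter on low values. They were divided into 11 fibrillar chains, 6 basement membrane chains (type IV) and 25 other chains. RNA of the mouse iris was measured on 12 Affymetrix arrays, 3 for each of 4 strains, and each array held the irides of 2 animals aged 60 days, or 4 eyes, pooled into 1 sample. C57BL/6J carries no named mutation. B6-Lyst here stands for B6-Lystbg-J, whose Lyst gene is mutated. The Tyr mutant B6-(Cg)TyrC-2J is called B6-albino. B6-D2 congenic is the short name of B6.D2(Tryp1-Gpnmb-)/SJ, which carries mutant Tyrp1 and Gpnmb. All 4 are on a C57BL/6 background by name, and the Lyst, Tyr, Tyrp1 and Gpnmb mutations are carried in every cell of the animal. The labels call the samples of a strain biological replicates, and their spread therefore includes differences between animals, between dissections and between arrays.

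Collagens are the main structural proteins of connective tissue. Each molecule is a helix of chains that can be copies of 1 chain or products of different genes. Fibrillar collagens assemble into the fibres of the stroma, and type IV collagen forms the sheet of basement membranes, which lie under the epithelia of the iris, around its muscle and vessels, and around the lens as the lens capsule. Other collagens sit on fibril surfaces, form beaded filaments or hexagonal networks, or span cell membranes. Mutations in COL4A1 in people and mice affect the anterior segment of the eye, and Descemet's membrane of the cornea is rich in type VIII collagen.

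No collagen chain gene differed between strains at an adjusted p under 0.05, in any of the 6 pairs of strains or in the test for any difference among the 4 strains (limma moderated tests on log2 values, two-sided, Benjamini-Hochberg over 45037 probe sets). None of the other probe sets of these genes was called either. Of the 42 genes, Col4a2 had the largest difference: this type IV chain was 5.04-fold and its partner Col4a1 4.09-fold higher in B6-albino than in C57BL/6J by the strain means, with adjusted p of 0.157 and 0.167. The smallest adjusted p belonged to Col4a5 and Col8a1, which were 1.73-fold and 1.62-fold lower in B6-Lyst than in B6-albino, at 0.0560 and 0.0583. The fibrillar chains that make up the bulk of stromal fibres, Col1a1, Col1a2 and Col3a1, differed by at most 0.47 on the log2 scale between any 2 strains. A p that misses the threshold does not show that values were equal, so 95% intervals are given with the differences.

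**Figure D1:**
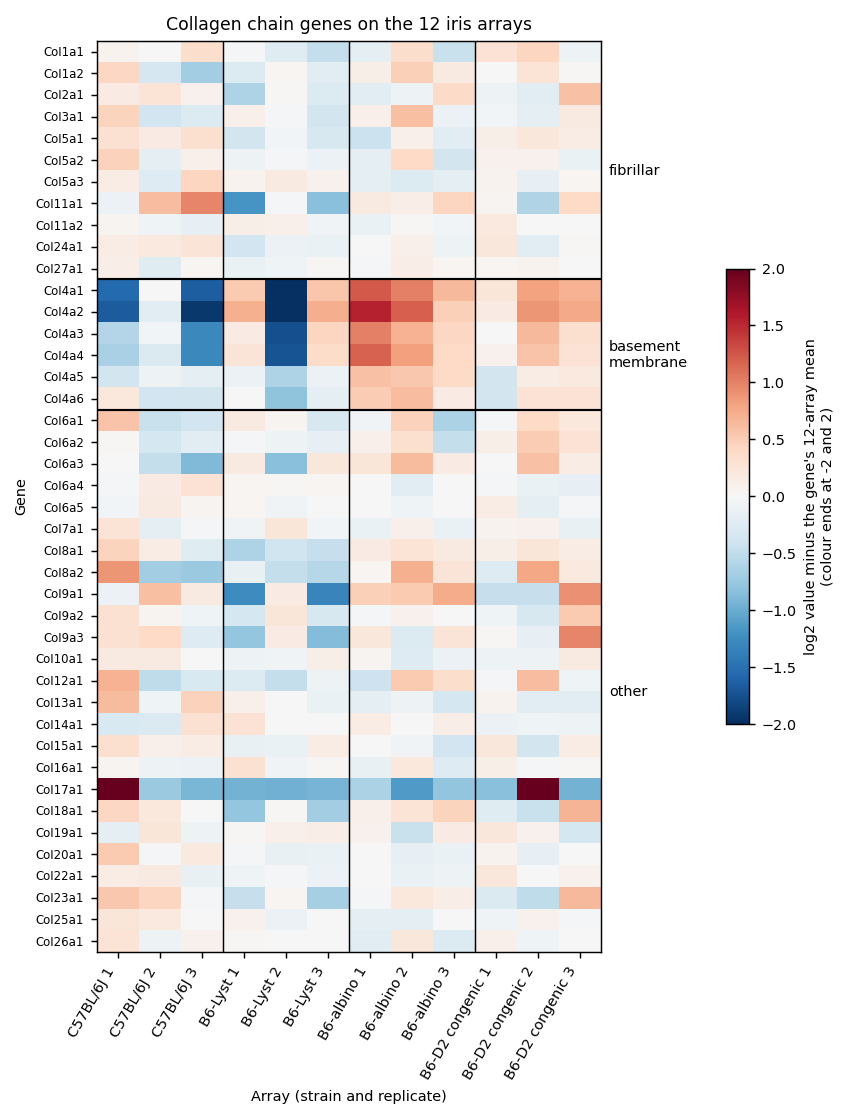
Each row is 1 of the 42 collagen chain genes and each column 1 of the 12 arrays, and the colour is the log2 value minus the gene's mean over the 12 arrays. Apart from Col17a1, the widest ranges are those of Col4a1, Col4a2, Col4a3 and Col4a4. These chains are low on C57BL/6J replicates 1 and 3 and on B6-Lyst replicate 2. Col17a1 is high on C57BL/6J replicate 1 and B6-D2 congenic replicate 2.

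Upstream sequences of the genes with the smallest p are shown first, with those of their genomic neighbours among the type IV chains. Type IV genes lie in head-to-head pairs, and in the RefSeq annotation of GRCm38.p6 the extents of Col4a1 and Col4a2 overlap, as do those of Col4a3 and Col4a4, while Col4a5 and Col4a6 are neighbours that lie apart. A promoter window was held for 33 of the 42 genes. Sequences are from RefSeq, GRCm38.p6, 5′ to 3′ on the gene's own strand, and end before the first annotated base of the gene. Capitals mark matches to 3 promoter motifs, searched on both strands. The CCAAT box was searched as its letters CCAAT. The GC box, bound by Sp1 and related factors, was searched as GGGCGG. The TATA box, where the general transcription machinery binds, was searched as TATAAA. The first is the 250 bases at chr16:57754738-57754987 (minus strand) before Col8a1.
Col8a1: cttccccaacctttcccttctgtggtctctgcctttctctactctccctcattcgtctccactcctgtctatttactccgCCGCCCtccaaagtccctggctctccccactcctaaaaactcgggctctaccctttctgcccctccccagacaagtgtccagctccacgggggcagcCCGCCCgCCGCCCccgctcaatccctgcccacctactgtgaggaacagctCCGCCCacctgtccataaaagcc
The next 2 are the 201 bases at chrX:141475169-141475369 (plus strand) before Col4a5 and the 231 bases at chrX:141474096-141474326 (minus strand) before Col4a6.
Col4a5: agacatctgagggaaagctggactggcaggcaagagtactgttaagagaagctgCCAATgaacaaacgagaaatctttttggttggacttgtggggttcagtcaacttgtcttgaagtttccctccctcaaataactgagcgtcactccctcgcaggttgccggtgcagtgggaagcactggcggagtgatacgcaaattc
Col4a6: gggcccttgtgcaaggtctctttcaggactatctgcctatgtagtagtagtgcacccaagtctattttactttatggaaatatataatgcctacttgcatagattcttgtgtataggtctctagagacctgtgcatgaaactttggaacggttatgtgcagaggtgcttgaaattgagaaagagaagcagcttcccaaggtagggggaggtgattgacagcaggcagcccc
The last is 30 bases at chr8:11312761-11312790 (plus strand), upstream of the Col4a2 start and inside the annotated extent of Col4a1, chosen for the CCAAT match between the 2 genes.
Col4a2: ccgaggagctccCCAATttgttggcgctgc

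Col8a1 had 4 GC box matches, each on the strand opposite to the gene, Col4a5 had 1 CCAAT match, and the Col4a6 stretch matched none of the 3 motifs. Over 32851 promoter windows, a GC box was found in 32.7% of windows of 250 bases and a CCAAT match in 28.6% of windows of 201 bases. The stretch of 231 bases held a CCAAT match in 32.3%, a GC box in 30% and a TATA box in 11.8% of windows. A match is a description of these letters and not evidence of a bound factor.

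The arrays differed in tissue markers and in control readings of RNA handling, which are given here beside the collagen values. Markers of melanocytes and pigmented epithelium averaged 12.6 to 13.4 on every array, and smooth muscle markers 9.29 to 10.5, so both were present throughout. Lens markers (8 of 9 on the array) averaged 7.91 and 7.51 on C57BL/6J replicates 1 and 3 and 6.71 on B6-Lyst replicate 2, against 10.2 to 12.6 on the other 9 arrays. Krt12, which encodes a corneal epithelial keratin, was high on 3 arrays, at 13.8 on B6-D2 congenic replicate 2, 12.9 on C57BL/6J replicate 1 and 10.4 on B6-albino replicate 1, against 5.96 to 7.12 elsewhere. Kera, 1 of 4 corneal stroma markers, was 7.32 for replicate 2 of B6-albino and 9.81 for replicate 2 of B6-D2 congenic, against 4.72 to 5.34 elsewhere. Lum, Dcn and Ogn did not set these arrays apart. That B6-albino array was the highest for Col1a2 (12.17), Col3a1 (11.91) and Col6a3 (11.80). The B6-D2 congenic array read 11.96, 11.12 and 11.75. The part of corneal stroma in these values was not tested. Retina markers averaged 6.74 to 9.88. Macrophage markers averaged 9.23 to 9.38 in B6-Lyst and 7.36 to 7.99 in the other strains, with 1 of the 6 below 5.653 in every strain. That value is the 40th percentile of probe set means, used here as a mark of low signal, and is not a measured background. Spiked poly-A controls read 7.36 to 8.16 on the C57BL/6J arrays and 4.94 to 5.95 on all others, so strain and spike level cannot be told apart in a comparison with C57BL/6J. The difference between 3′ and 5′ actin probe sets reached 4.30 on C57BL/6J replicate 3 and was 1.84 to 2.72 on the other arrays. In pooled tissue, fewer cells of a type and less RNA per cell cannot be told apart.

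Of the type IV genes, Col4a1 and Col4a2 encode the chains found in nearly all basement membranes. Col4a1 read 10.97, 12.51 and 10.86 on the C57BL/6J arrays, 13.04, 10.00 and 13.07 on the B6-Lyst arrays, 13.74, 13.52 and 13.17 on the B6-albino arrays, and 12.75, 13.32 and 13.21 on the B6-D2 congenic arrays. The low arrays were C57BL/6J replicates 1 and 3 and B6-Lyst replicate 2, and the remaining 9 lay between 12.5 and 13.7. Strain means were 11.45 ± 0.92 for C57BL/6J, 12.04 ± 1.77 for B6-Lyst, 13.48 ± 0.29 for B6-albino and 13.09 ± 0.30 for B6-D2 congenic (SD, n = 3). The B6-albino and B6-D2 congenic arrays all lay above the C57BL/6J arrays, by 2.03 (SE 0.69, 95% interval 0.53 to 3.53) and 1.65 (SE 0.69, 0.15 to 3.14) on the log2 scale, with adjusted p of 0.167 and 0.312 by limma. The B6-Lyst arrays lay below every B6-albino array and overlapped those of C57BL/6J and B6-D2 congenic, and the difference from C57BL/6J was 0.59 (interval -0.91 to 2.09).

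Col4a2, the partner of Col4a1 in the same molecule, read 10.07, 11.50 and 9.80 on the C57BL/6J arrays, 12.43, 9.08 and 12.45 on the B6-Lyst arrays, 13.26, 12.91 and 12.20 on the B6-albino arrays, and 11.89, 12.61 and 12.48 on the B6-D2 congenic arrays. Both chains lay on the same side of their strain means on 12 of 12 arrays. The difference between B6-albino and C57BL/6J was 2.33 (SE 0.76, interval 0.68 to 3.99, adjusted p = 0.157), and that between B6-D2 congenic and C57BL/6J was 1.87 (SE 0.76, interval 0.22 to 3.52, adjusted p = 0.299). These comparisons share the C57BL/6J arrays. Without B6-Lyst replicate 2, which is in neither strain compared but widens the shared estimate of spread, Col4a1, Col4a2 and Col4a4 were called between B6-albino and C57BL/6J, at adjusted p of 0.0495, 0.0471 and 0.0434 with the differences unaltered. Only 1 of the 12 fits with 1 array left out called them, and their highest adjusted p over these fits was 0.367, 0.363 and 0.342.

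**Figure D2:**
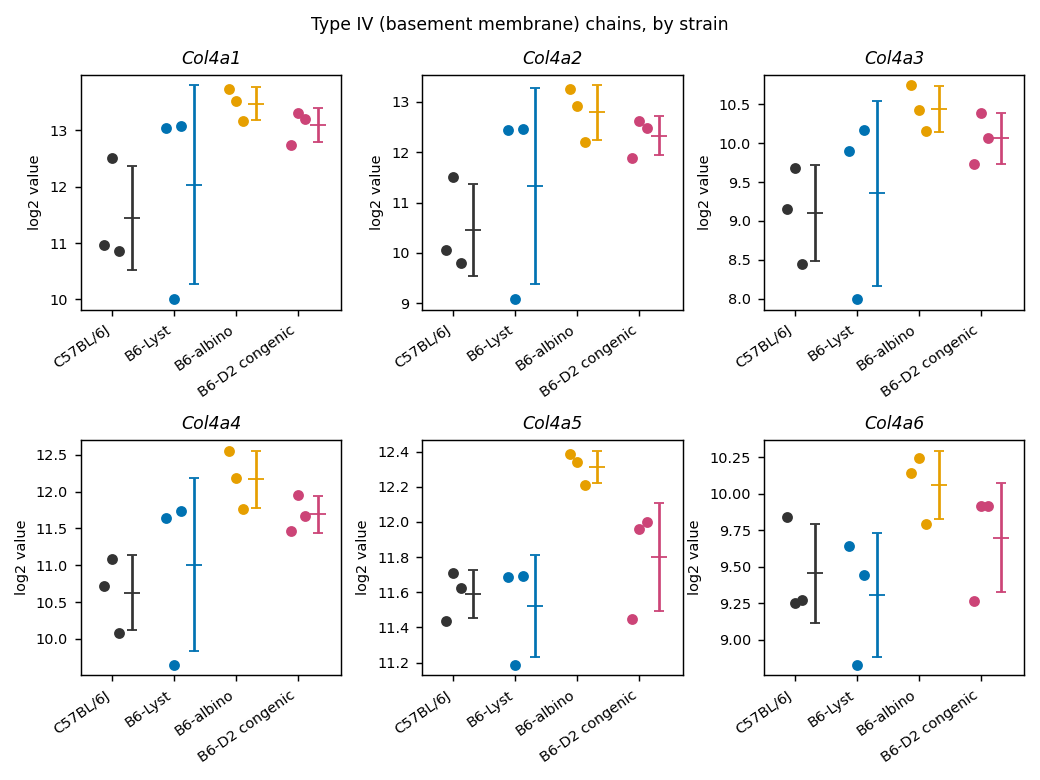
Each point is 1 array and the bar beside it is the strain mean with its SD (n = 3), on the log2 scale as deposited, 1 panel per type IV chain with its own axis. B6-Lyst replicate 2 is the lowest of the 12 arrays in all 6 panels, and the 3 B6-albino arrays of Col4a5 lie above the other 9.

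Col4a3 and Col4a4 encode chains of the type IV network of the glomerulus, the lens capsule and other specialised basement membranes, together with Col4a5. Col4a4 read 10.72, 11.08 and 10.08 on the C57BL/6J arrays, 11.64, 9.65 and 11.73 on the B6-Lyst arrays, 12.55, 12.19 and 11.77 on the B6-albino arrays, and 11.46, 11.95 and 11.66 on the B6-D2 congenic arrays. The B6-albino arrays lay above every C57BL/6J and B6-Lyst array, with differences of 1.54 from C57BL/6J (SE 0.46, interval 0.53 to 2.55, adjusted p = 0.137) and of 1.16 from B6-Lyst (Col4a4 in B6-Lyst minus B6-albino -1.16, SE 0.46, adjusted p = 0.256). The latter was -0.48 without B6-Lyst replicate 2 and -0.38 with lens, retina and corneal epithelium markers as covariates. Col4a3 and Col4a4 were on the same side of their strain means on 11 of 12 arrays. Its mean was 9.10 ± 0.62 for C57BL/6J, 9.36 ± 1.19 for B6-Lyst, 10.44 ± 0.30 for B6-albino and 10.06 ± 0.33 for B6-D2 congenic. The B6-albino minus C57BL/6J difference of Col4a3 was 1.35 (SE 0.48, adjusted p = 0.184).

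Col4a5, whose chain is affected in X-linked Alport syndrome, varied less between replicates than the 4 chains above. It read 11.44, 11.71 and 11.62 on the C57BL/6J arrays, 11.69, 11.19 and 11.69 on the B6-Lyst arrays, 12.39, 12.34 and 12.21 on the B6-albino arrays, and 11.45, 11.96 and 11.997 on the B6-D2 congenic arrays. All 3 B6-albino arrays lay above the other 9. The means were 12.31 ± 0.09 in B6-albino and 11.52 ± 0.29 in B6-Lyst, with a difference of -0.79 for B6-Lyst minus B6-albino (SE 0.18, interval -1.18 to -0.40, adjusted p = 0.0560). The difference between B6-albino and C57BL/6J was 0.72 (SE 0.18, interval 0.34 to 1.11, adjusted p = 0.0954; 0.46 and 0.244 under quantile normalization), and between B6-albino and B6-D2 congenic 0.51 (adjusted p = 0.491). Without B6-D2 congenic replicate 1 the B6-Lyst minus B6-albino difference of Col4a5 was called, at an adjusted p of 0.0283. That was 1 call in the 12 fits with 1 array left out, where the adjusted p reached 0.188. The same difference was -0.53 (adjusted p = 0.247) under quantile normalization and -0.75 (0.204) without the 3 arrays with high Krt12. A second Col4a5 probe set gave -0.67 for that difference and 0.45 for B6-albino minus C57BL/6J, with no call. Col4a6, its genomic neighbour, had means of 9.45 ± 0.34, 9.30 ± 0.42, 10.06 ± 0.24 and 9.70 ± 0.37 in C57BL/6J, B6-Lyst, B6-albino and B6-D2 congenic. Its B6-Lyst minus B6-albino difference was -0.76 (SE 0.25, adjusted p = 0.182), and it lay on the same side of the strain mean as Col4a5 on 9 of 12 arrays.

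Type IV values were set beside the lens markers across arrays, as the lens capsule is itself a type IV basement membrane. The 3 arrays with the lowest lens markers were the 3 lowest for Col4a1, Col4a2, Col4a3 and Col4a4, but not for Col4a5 and Col4a6. Col4a6 read 9.84 on C57BL/6J replicate 1, at a lens mean of 7.91, and 9.25 on replicate 2, at a lens mean of 10.4. B6-albino replicate 3 had the highest lens mean, 12.6, and was the lowest B6-albino array for all 6 chains. With mean lens, retina and corneal epithelium marker levels as covariates, the B6-albino minus C57BL/6J difference was 0.53 for Col4a1 (adjusted p = 0.657), 0.87 for Col4a2 (0.557), 0.75 for Col4a4 (0.482) and 0.60 for Col4a5 (0.389). Without the 3 arrays with low lens markers, an alternative added with the values known, it was 0.97, 1.29, 1.09 and 0.61 in the same order, with adjusted p from 0.449 to 0.494. The C57BL/6J mean then rested on replicate 2 alone, whose spread was assumed to be that of the other strains. The Col4a5 difference between B6-Lyst and B6-albino was -0.61 with the covariates (adjusted p = 0.184) and -0.62 without the 3 arrays. Across the 6 chains the median B6-albino minus C57BL/6J difference of 1.44 became 0.66 with the covariates and 0.89 without the 3 arrays. The part of lens tissue in the differences was not tested beyond these values.

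**Figure D3:**
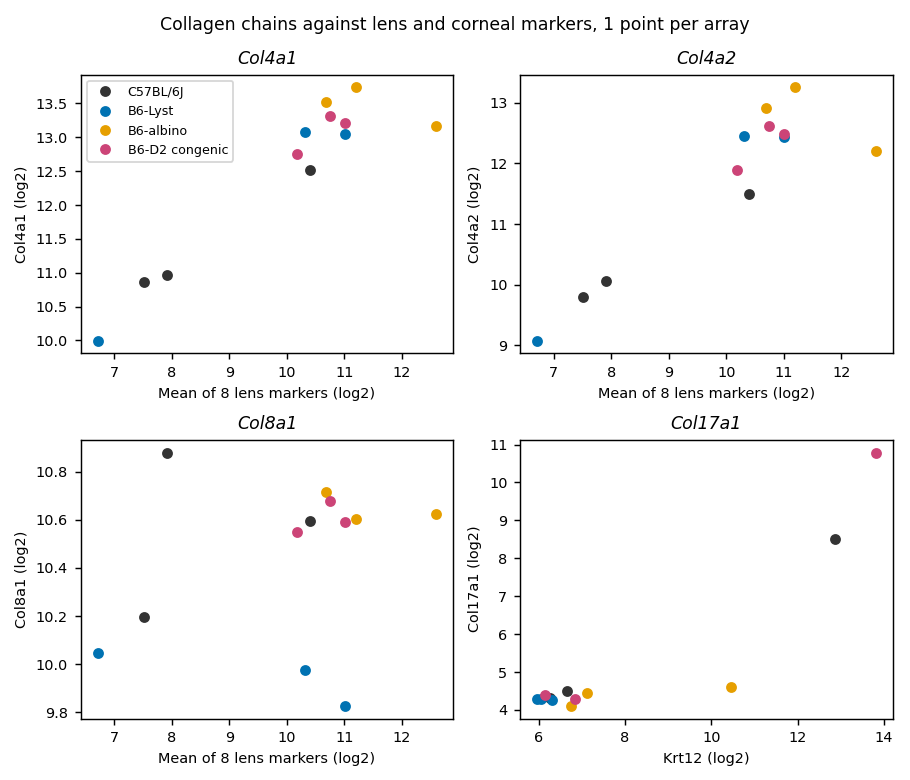
Each point is 1 array, coloured by strain, with the log2 value of Col4a1, Col4a2 or Col8a1 against the mean of 8 lens markers, and of Col17a1 against Krt12. For Col4a1 and Col4a2 the 3 arrays with lens means of 6.71, 7.51 and 7.91 are the 3 lowest, for Col8a1 the 3 B6-Lyst arrays are low at any lens level, and for Col17a1 the arrays at Krt12 of 12.9 and 13.8 stand apart.

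The 3 classes were set side by side by their median differences, which describe the lists and carry no test. Between B6-albino and C57BL/6J the median was -0.18 for fibrillar, 1.44 for basement membrane and -0.07 for other chains, against 0.00 for all genes. Between B6-D2 congenic and C57BL/6J it was -0.08, 1.01 and -0.01, against 0.03. Between B6-Lyst and C57BL/6J it was -0.21, 0.32 and -0.15, and these 3 comparisons share the C57BL/6J arrays. In the pairs of mutant strains the basement membrane median was -1.12 for B6-Lyst minus B6-albino, -0.69 for B6-Lyst minus B6-D2 congenic and 0.42 for B6-albino minus B6-D2 congenic. The fibrillar median was negative in all 6 pairs but no larger than 0.22 in size, and it turned to 0.01, 0.05 and 0.14 with the tissue covariates in the 3 pairs with C57BL/6J. Leaving out 1 array at a time, the basement membrane median for B6-Lyst minus C57BL/6J ranged from -0.07 to 1.00, and B6-Lyst replicate 2 set the upper end. Without that array the medians of B6-Lyst minus B6-albino and minus B6-D2 congenic went to -0.45 and -0.03, and with the tissue covariates they were -0.30 and -0.07.

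**Figure D4:**
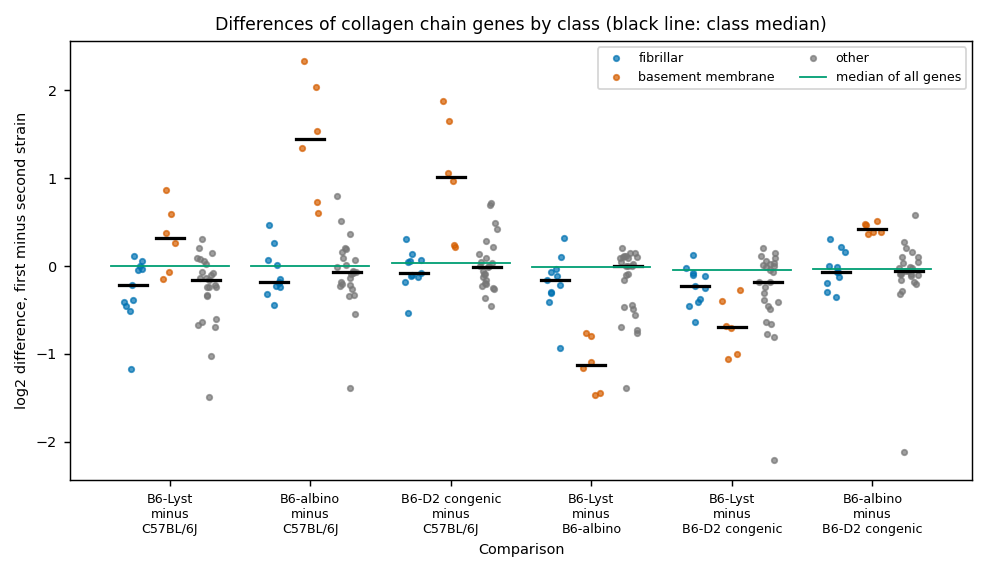
Each point is the log2 difference of 1 collagen gene in 1 of the 6 pairs of strains, first strain minus second, in 3 columns by class, with a black line at the class median and a green line at the median of all 18193 genes. The basement membrane median lies above the other 2 class medians for B6-albino and B6-D2 congenic minus C57BL/6J, at 1.44 and 1.01, and below them for B6-Lyst minus B6-albino, at -1.12, while single points of the classes overlap.

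The counts over the 42 genes are read against those of all genes. Between B6-Lyst and C57BL/6J 0 were called, where 1.96% of all genes were, and 8 (19%) had an unadjusted p under 0.05, where 14.9% of all genes did. Arrays of the 2 strains were fully separated for 6 of the 42 (14.3%), against 20.8% of all genes. Between B6-albino and C57BL/6J 0 were called (0.198% of all genes), 11 (26.2%) had an unadjusted p under 0.05 (18.9% of all genes), and 11 (26.2%) had arrays that did not overlap (23.8% of all genes). All 6 type IV chains were among the first 11, and 5 among the second, Col4a6 being the exception. Between B6-D2 congenic and C57BL/6J 0 were called (0.022% of all genes), 7 (16.7%) had an unadjusted p under 0.05 (14.7%), and 6 (14.3%) did not overlap (16.6%).

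Among the mutant strains, B6-Lyst against B6-albino gave 0 collagen calls where 1.83% of all genes were called. There 8 collagen genes (19%) had an unadjusted p under 0.05, against 16.6% of all genes, and 13 (31%) did not overlap, against 27.6%. For B6-Lyst against B6-D2 congenic the count of calls was 0 (1.21% of all genes), 3 collagen genes (7.14%) had an unadjusted p under 0.05 (9.98%), and 8 (19%) did not overlap (17.8%). For B6-albino against B6-D2 congenic it was 0 (0.0715% of all genes), 2 (4.76%) had an unadjusted p under 0.05 (6.62%), and 4 (9.52%) did not overlap (12.8%). The limma F test for any difference among the 4 strains called 0 of 42 genes (1.81% of all genes), with 10 (23.8%) at an unadjusted p under 0.05 (19.1% of all genes). The smallest adjusted p of the F test was 0.0911, for Col8a1.

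Col8a1 encodes 1 of the 2 chains of type VIII collagen, a network former of Descemet's membrane and of vessel walls. It read 10.88, 10.59 and 10.19 on the C57BL/6J arrays, 9.83, 10.05 and 9.98 on the B6-Lyst arrays, 10.60, 10.72 and 10.62 on the B6-albino arrays, and 10.55, 10.68 and 10.59 on the B6-D2 congenic arrays. All 3 B6-Lyst arrays lay below the other 9. The mean was 9.95 ± 0.11 in B6-Lyst against 10.56 ± 0.34 in C57BL/6J, 10.65 ± 0.06 for B6-albino and 10.61 ± 0.07 for B6-D2 congenic. The differences, B6-Lyst minus the other strain, were -0.61 (SE 0.16, interval -0.95 to -0.26, adjusted p = 0.0843), -0.70 (SE 0.16, interval -1.04 to -0.35, adjusted p = 0.0583) and -0.66 (SE 0.16, adjusted p = 0.122). The B6-Lyst arrays are shared by these comparisons. Macrophage markers were higher on the same 3 arrays, as given above. The 6 vascular endothelium markers averaged 6.84 to 7.08 on the B6-Lyst arrays, below the 7.34 to 7.70 of C57BL/6J and overlapping the 6.99 to 7.49 of B6-albino and the 6.83 to 7.30 of B6-D2 congenic, with 1 of the 6 below 5.653 in every strain. The part of either marker list in the Col8a1 difference was not tested.

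The Col8a1 result sat close to the threshold and moved across it with the arrays in the fit. Without C57BL/6J replicate 3 it was called against C57BL/6J (-0.79, adjusted p = 0.0154), B6-albino (0.0125) and B6-D2 congenic (0.0233), and in the F test (0.0207). Without C57BL/6J replicate 1 it was called against B6-albino (0.0215) and B6-D2 congenic (0.0402) and in the F test (0.0460). With the tissue covariates it was -0.54, -0.67 and -0.56 against C57BL/6J, B6-albino and B6-D2 congenic (adjusted p = 0.194, 0.180 and 0.417). Without the 3 arrays with high Krt12 it was -0.44, -0.72 and -0.62 in that order (adjusted p = 0.246, 0.117 and 0.297). The highest adjusted p with 1 array left out was 0.298, 0.231 and 0.469. A second Col8a1 probe set gave -0.24, -0.61 and -0.67, and another, with a mean of 4.69, gave -0.10, 0.05 and 0.04. Col8a2, the partner chain, had means of 9.16 ± 0.92, 8.94 ± 0.22, 9.67 ± 0.35 and 9.58 ± 0.51 in C57BL/6J, B6-Lyst, B6-albino and B6-D2 congenic. Its B6-Lyst arrays lay below the B6-albino arrays by 0.73, with an interval for B6-Lyst minus B6-albino of -1.59 to 0.12, and both chains were on the same side of the strain mean on 8 of 12 arrays.

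**Figure D5:**
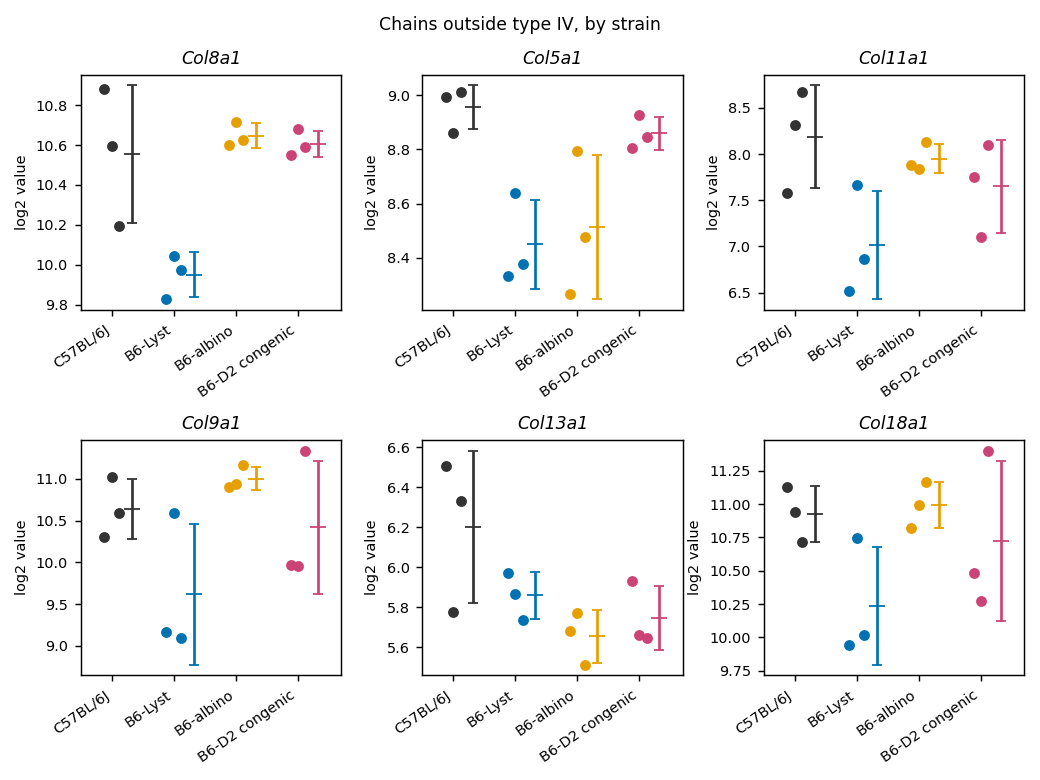
Each point is 1 array and the bar beside it is the strain mean with its SD (n = 3), on the log2 scale as deposited, for 6 chains outside type IV. All 3 B6-Lyst arrays of Col8a1 lie below the other 9, and B6-Lyst replicate 2 lies above replicates 1 and 3 for Col11a1, Col9a1 and Col18a1.

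Among the fibrillar chains, Col1a1 and Col1a2 encode type I collagen and Col3a1 type III collagen. Col1a2 read 12.10, 11.35 and 10.99 on the C57BL/6J arrays, 11.41, 11.73 and 11.47 on the B6-Lyst arrays, 11.80, 12.17 and 11.87 on the B6-albino arrays, and 11.68, 11.96 and 11.71 on the B6-D2 congenic arrays. The C57BL/6J arrays alone covered most of this range, and the largest difference, 0.47 for B6-albino minus C57BL/6J, had an interval of -0.04 to 0.97 (adjusted p = 0.316). Col3a1 had means of 11.24 ± 0.45, 11.21 ± 0.24, 11.50 ± 0.37 and 11.29 ± 0.19 in C57BL/6J, B6-Lyst, B6-albino and B6-D2 congenic. Its intervals in the 6 pairs lay within 0.82 of 0. Col1a1 had means of 7.42 ± 0.19, 7.03 ± 0.22, 7.19 ± 0.41 and 7.48 ± 0.28 in the same order. Its B6-Lyst minus C57BL/6J difference was -0.39, with an interval of -0.85 to 0.07. A second Col1a1 probe set gave -0.02 for that difference. For B6-Lyst minus B6-D2 congenic it gave 0.14, where the first gave -0.46. Col1a1 and Col1a2, partners in type I collagen, lay on the same side of their strain means on 8 of 12 arrays.

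Col5a1 encodes a chain of type V collagen, which sits inside type I fibrils and limits their width. It read 8.99, 8.86 and 9.01 on the C57BL/6J arrays, 8.33, 8.64 and 8.38 on the B6-Lyst arrays, 8.27, 8.79 and 8.47 on the B6-albino arrays, and 8.80, 8.93 and 8.85 on the B6-D2 congenic arrays. The B6-Lyst and the B6-albino arrays lay below all C57BL/6J and all B6-D2 congenic arrays. The differences from C57BL/6J were -0.51 in B6-Lyst (SE 0.15, interval -0.83 to -0.18, adjusted p = 0.122) and -0.44 in B6-albino (interval -0.76 to -0.12, adjusted p = 0.164). A second Col5a1 probe set gave -0.30 and -0.01 for these differences. Its partner Col5a2, by the probe set with the highest mean, differed by at most 0.21 between any 2 strains, with an interval for B6-Lyst minus C57BL/6J of -0.66 to 0.23, and was on the same side of its strain mean as Col5a1 on 10 of 12 arrays. A second Col5a2 probe set gave -0.40, -0.61 and -0.49 for B6-Lyst, B6-albino and B6-D2 congenic minus C57BL/6J, with no call.

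Col11a1 encodes a chain of type XI collagen, the counterpart of type V in cartilage and vitreous. It read 7.58, 8.31 and 8.67 on the C57BL/6J arrays, 6.52, 7.67 and 6.86 on the B6-Lyst arrays, 7.88, 7.84 and 8.13 on the B6-albino arrays, and 7.75, 7.10 and 8.09 on the B6-D2 congenic arrays. B6-Lyst replicates 1 and 3 were the lowest of the 12 arrays, and replicate 2 overlapped the C57BL/6J arrays. The B6-Lyst minus C57BL/6J difference was -1.17 (SE 0.34, interval -1.91 to -0.44, adjusted p = 0.118), a 2.25-fold lower mean. It was called without C57BL/6J replicate 1 (-1.48, adjusted p = 0.0494) and when the tissue covariates were included (-1.40, adjusted p = 0.0261), while a second Col11a1 probe set gave -0.36 (adjusted p = 0.697). Over the 12 fits with 1 array left out the difference ranged from -1.50 to -0.92, with 1 call and adjusted p up to 0.378. Col11a2 read 5.22 to 5.58 on all arrays, below 5.653. Col24a1, a fibrillar chain of developing bone and cornea, also lay below that value on every array, with means of 5.23 ± 0.05 in C57BL/6J and 4.83 ± 0.15 in B6-Lyst (difference -0.41, adjusted p = 0.109).

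Col9a1 encodes a chain of type IX collagen, which decorates fibrils and is made by the ciliary epithelium for the vitreous. It read 10.31, 11.02 and 10.60 on the C57BL/6J arrays, 9.17, 10.59 and 9.09 on the B6-Lyst arrays, 10.90, 10.94 and 11.16 on the B6-albino arrays, and 9.96, 9.95 and 11.34 on the B6-D2 congenic arrays. The B6-Lyst arrays lay below the B6-albino arrays, with a difference of -1.38 (SE 0.42, interval -2.30 to -0.47, adjusted p = 0.145), and without B6-Lyst replicate 2 it was called (-1.87, adjusted p = 0.0447). A second Col9a1 probe set gave -0.47. Col18a1, which encodes type XVIII collagen of basement membranes and holds the endostatin fragment, read 9.94, 10.74 and 10.02 on the B6-Lyst arrays and 10.82, 10.99 and 11.16 on the B6-albino arrays. That difference was -0.76 (SE 0.28, interval -1.37 to -0.14, adjusted p = 0.223), and the C57BL/6J mean of Col18a1 was 10.93 ± 0.21. On the same 3 B6-Lyst arrays Col9a3, a partner of Col9a1, read 7.31, 8.25 and 7.22, and the transmembrane chain Col23a1, named after its values were seen, 9.67, 10.16 and 9.47. Replicate 2 was the highest of the B6-Lyst arrays for these 4 chains and the lowest for Col4a1, while for Col12a1, Col14a1, Col16a1 and Col20a1 it was not the highest.

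The partner chain Col9a2 lay near the 40th percentile, with strain means from 5.59 to 5.82, and was on the same side of its strain mean as Col9a1 on 8 of 12 arrays and as Col9a3 on 8 of 12. Col13a1, a transmembrane chain of neuromuscular junctions and other adhesion sites, read 6.51, 5.78 and 6.33 on the C57BL/6J arrays and 5.51 to 5.97 on the other 9 arrays. C57BL/6J replicates 1 and 3, which also had low lens markers, were the highest 2 arrays. B6-Lyst replicate 2, the array with the lowest lens mean, read 5.87 and was not set apart from the others. The B6-albino minus C57BL/6J difference of Col13a1 was -0.55 (SE 0.17, adjusted p = 0.140). It was -0.12 without the 3 arrays with low lens markers, where the C57BL/6J mean rested on replicate 2 alone. Col6a3, the large chain of the beaded filaments of type VI collagen, read 11.17, 10.69 and 10.29 on the C57BL/6J arrays and 11.41, 11.80 and 11.32 on the B6-albino arrays, with no overlap. The difference was 0.80 (SE 0.30, interval 0.15 to 1.44, adjusted p = 0.199), and B6-Lyst replicate 2, at 10.3, was again low. Col6a2, its partner, was 0.49 higher in B6-D2 congenic than in C57BL/6J (SE 0.19, interval 0.06 to 0.91, adjusted p = 0.291), and Col6a1 differed by at most 0.29 between any 2 strains.

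Col17a1 encodes a hemidesmosome collagen that anchors stratified epithelia, and it was named after its values were seen because it had the widest range of the 42 genes. It read 10.8 on B6-D2 congenic replicate 2, 8.51 on C57BL/6J replicate 1, and 4.11 to 4.60 on the other 10 arrays. Those 2 arrays had the highest Krt12 values, and the next highest, B6-albino replicate 1, had Col17a1 at 4.60. The strain means carried SDs of 2.37 in C57BL/6J and 3.72 in B6-D2 congenic, and every pair of strains had an interval that held 0. Without the 3 arrays with high Krt12 the Col17a1 differences were -0.12, -0.13 and -0.061 for B6-Lyst, B6-albino and B6-D2 congenic minus C57BL/6J.

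The enzymes that build and remodel collagen were followed in lists of textbook genes, each given by its counts and medians. Of the genes of chain modification and folding, 21 of 22 were on the array, and 0 were called in any pair. Of all genes 0.022% to 1.96% were called, by pair. P4ha2, a prolyl hydroxylase subunit, read 8.43, 8.86 and 7.90 on the C57BL/6J arrays and 9.93, 9.73 and 9.26 on the B6-albino arrays, a difference of 1.24 (SE 0.37, adjusted p = 0.137). Plod2, a lysyl hydroxylase, differed by 1.26 in the same pair (SE 0.35, adjusted p = 0.118), and Tmem38b, an ion channel of the endoplasmic reticulum needed for collagen modification, by -0.40 (adjusted p = 0.143). The list's median in that pair was 0.19.

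Of the genes of propeptide removal and cross-linking, 12 of 15 were on the array, and 1 was called in 1 pair. That pair was B6-Lyst and B6-albino, where 1.83% of all genes were called. Lox, lysyl oxidase, was lower in B6-Lyst (6.36, 6.58 and 6.20) than in B6-albino (7.12, 7.30 and 7.04), by -0.77 (SE 0.16, adjusted p = 0.0359, limma). The call was lost in the fits without C57BL/6J replicate 2 (0.0601), B6-Lyst replicates 1 (0.144), 2 (0.0510) or 3 (0.137), or B6-albino replicates 1 (0.114), 2 (0.133) or 3 (0.0762), where each value is an adjusted p. It was also lost, at differences of -0.87, -0.78 and -0.77, without the 3 arrays with low lens markers (adjusted p = 0.102), without those with high Krt12 (0.125) and with the replicate number as a block (0.0729). With the tissue covariates Lox was called (-0.94, adjusted p = 0.0436), and the mean of all Lox probe sets gave -0.27. Loxl1, a related oxidase of elastic fibres, read 8.97, 8.58 and 8.05 on the C57BL/6J arrays and 10.03, 10.02 and 9.54 on the B6-albino arrays, a difference of 1.34 (SE 0.26, adjusted p = 0.0610). Sparc, a collagen-binding matrix protein, differed by 1.32 in that pair (SE 0.37, adjusted p = 0.119), and the list's median was 0.45 there and -0.48 for B6-Lyst minus B6-albino.

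All 8 genes of the breakdown list were on the array, and 1 was called in 1 pair. That pair was B6-Lyst and C57BL/6J, where 1.96% of all genes were called. Mmp8, a collagenase of neutrophils, read 6.09, 6.09 and 6.02 on the B6-Lyst arrays and 5.31, 5.62 and 5.60 on the C57BL/6J arrays, so its C57BL/6J arrays lay below 5.653. It was higher in B6-Lyst by 0.56 (SE 0.10, adjusted p = 0.0201, limma), and the call was lost without B6-Lyst replicate 1 (0.0950), 2 (0.0673) or 3 (0.0589), given as adjusted p. It was also lost with the tissue covariates (0.47, adjusted p = 0.0799), with the arrays of the 2 strains alone (0.56, adjusted p = 0.0947), without the 3 arrays with low lens markers (0.44, adjusted p = 0.423) and without those with high Krt12 (0.45, adjusted p = 0.0789). Ctsk, the gene of cathepsin K, which macrophages and osteoclasts use to cut collagen, was 0.94 higher in B6-Lyst than in C57BL/6J (SE 0.24, adjusted p = 0.0799), and Fap, a fibroblast protease, 0.68 lower in B6-Lyst than in B6-albino (Fap in B6-Lyst minus B6-albino -0.68, adjusted p = 0.100). The list's median for B6-Lyst minus C57BL/6J was 0.07.

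Of the collagen receptors 9 of 10 were on the array, and 0 were called in any pair (0.022% to 1.96% of all genes). Ddr1, a receptor tyrosine kinase, read 9.61, 9.58 and 9.42 on the B6-Lyst arrays and 10.14, 10.09 and 10.02 on the B6-albino arrays (difference -0.55, SE 0.14, adjusted p = 0.0960). Itga10, an integrin chain, differed by -0.35 for B6-Lyst minus C57BL/6J (SE 0.09, adjusted p = 0.0825), and Lair1, an inhibitory receptor of leukocytes, by 0.41 (SE 0.15, adjusted p = 0.215).

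Laminins, nidogens and other partners of type IV collagen gave 0 calls among 14 of 15 genes on the array. The share of all genes called was 0.022% to 1.96%, by pair. Nid1, the nidogen that links the laminin and type IV networks, read 9.46, 10.43 and 9.01 on the C57BL/6J arrays, 11.25, 8.98 and 11.01 on the B6-Lyst arrays, 11.82, 11.84 and 11.32 on the B6-albino arrays, and 10.71, 11.66 and 11.45 on the B6-D2 congenic arrays. Its 3 lowest arrays were those that were lowest for Col4a1, and its B6-albino minus C57BL/6J difference was 2.03 (SE 0.53, adjusted p = 0.107). Lama1, a laminin chain of embryonic and lens basement membranes, differed by 1.48 in that pair (SE 0.33, adjusted p = 0.0762). Its C57BL/6J arrays, at 4.93, 5.43 and 5.29, lay below 5.653. Nid2 went the other way between B6-Lyst and C57BL/6J, at -0.76 (SE 0.19, adjusted p = 0.0713). The median of the list for B6-albino minus C57BL/6J was 0.02, so most of its members did not share the size of the Nid1 difference.

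The remaining 16 genes, 3 fibrillar and 13 other chains, had no F test p under 0.05. Col2a1, the main fibrillar chain of cartilage and vitreous, read 6.63 to 7.82, Col5a3 7.04 to 7.74 and Col27a1 7.74 to 8.12 over the 12 arrays. The chains that sit on fibril surfaces included Col12a1 at 8.69 to 9.90, Col14a1 at 5.37 to 5.97, Col16a1 at 8.45 to 9.01, Col20a1 at 6.89 to 7.58 and Col22a1 at 5.58 to 5.95. Col7a1, the chain of the anchoring fibrils under stratified epithelia, read 6.76 to 7.21, and Col15a1, a relative of Col18a1, 6.54 to 7.24. Col6a4 read 6.38 to 6.87, Col25a1, a transmembrane chain, 6.40 to 6.82, and Col26a1 5.42 to 5.97. Col12a1 had the widest range of these 16, and its strain means lay between 8.92 and 9.37 with SDs of 0.19 to 0.65. Its highest arrays were C57BL/6J replicate 1 (9.90), B6-D2 congenic replicate 2 (9.82) and B6-albino replicate 2 (9.73). The same arrays were highest for Col8a2 (10.22, 10.11 and 10.05). Krt12 or Kera was high on each, but B6-albino replicate 1, also high for Krt12, read 8.79 for Col12a1. The part of corneal tissue was not tested. Col6a5, at 3.81 to 4.18, Col10a1, at 4.85 to 5.30, and Col19a1, at 4.86 to 5.54, stayed below 5.653 on every array. Of the 42 genes, 36 had a mean at or above that value and 6 below it, which were these 3 with Col11a2, Col24a1 and Col17a1, and differences are compressed at that level.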

How the data were processed

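Per probe set and array the authors deposited a single log2 value. The log2 scale is inferred from these values, which ran from 2.98 to 14.3 with array medians of 6.05 to 6.14. How background was corrected and how probes were normalized and summarised is not given in the sources used here. The deposited log2 values were used unaltered. Levels of different probe sets were not compared. Symbols came from the platform annotation. Of 45037 probe sets other than controls, 34945 had 1 symbol, 932 several and 9160 none, and those without exactly 1 symbol are unnamed. The 64 controls were left out.

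A linear model with a mean for each strain over the 12 arrays was fitted with limma 3.58.1 in R 4.3.3, with an intensity trend (prior degrees of freedom 3.93). The 6 pairs of strains and an F test were adjusted by Benjamini-Hochberg over all probe sets without a filter, and called at an adjusted p under 0.05. The method was tested on simulated data. The number of arrays limits the precision. Same-strain arrays correlated at 0.973 to 0.992, with 0 identical pairs.

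The genes and lists were chosen with earlier results of these data known. Named with values are called members, the 12 with the smallest F test p, the 2 with the highest mean signal per class, their partner chains, and in each supporting list the called members and the 3 with the smallest F test p. Others are said to be named after their values were seen. Alternatives were the low-value filter, the trend, quantile and 75th percentile scaling, the replicate block, tissue and RNA quality covariates, the arrays in the fit, and the probe set rule.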

Additional observations from a re-analysis of the deposited data

How the results depend on the processing

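With 0 collagen genes called in each comparison, any call under another setting is a change. For B6-Lyst minus C57BL/6J the count was 1 under quantile normalization (Col8a1), tissue covariates (Col11a1) and the RNA quality covariate (Col8a1), and 0 to 1 with 1 array left out. For B6-albino minus C57BL/6J it was 0 to 3 with 1 array left out. For B6-Lyst minus B6-albino it was 1 with the low-value filter, 75th percentile scaling, only the 2 strains' arrays, or without the 3 arrays with low lens markers (each Col8a1), 2 without the intensity trend and with the RNA quality covariate (Col4a5 and Col8a1), and 0 to 1 with 1 array left out. For B6-Lyst minus B6-D2 congenic and for the F test it was 1 with the RNA quality covariate (Col8a1) and 0 to 1 with 1 array left out. The cause was not tested. The other settings gave 0. The F test was not run on the arrays of 2 strains alone.

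Same-numbered samples had deviations from their strain means that correlated at -0.41 to 0.38, and 4 of 12 arrays correlated best with their own number. These values show no clear pairing by number. They cannot exclude one, since the deviations also include differences between dissections. With the replicate block 0 collagen genes were called in each comparison, and over all probe sets the calls for B6-albino minus C57BL/6J went from 83 to 2.

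Col17a1 changed sign: 0.064 for B6-Lyst minus C57BL/6J with tissue covariates; -0.061 for B6-D2 congenic minus C57BL/6J without the arrays with high Krt12, and -1.43 to 2.09 with 1 array left out; 0.52 for B6-Lyst minus B6-albino with tissue covariates and 0.0096 without the arrays with high Krt12, and -0.24 to 0.0096 with 1 array left out; and -3.22 to 0.038 for B6-albino minus B6-D2 congenic with 1 array left out. Col25a1 gave 0.047 for B6-albino minus C57BL/6J as the mean of its probe sets. Signal near the low end limits Col6a5, Col10a1, Col11a2, Col19a1 and Col24a1.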
